A study of Homo sapiens with 45 samples.

Results

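The features described here are the precursor (hairpin) rows of a small RNA count table made from the epithelial HCT116 cell line, which was derived from a human colorectal carcinoma. A precursor row carries a miRNA hairpin name, such as mir-21 or let-7b, without an arm, whereas a mature row names 1 arm of the hairpin, such as miR-21-5p. The table held 618 precursor rows among 167112 rows, and the 200 with the highest sum of raw counts over the 45 libraries were taken. The 200 rows were thus chosen by those sums, so the ranking and the levels are a description. The sums lean on the AGO2 IP of WT cells, which supplied 20.1% of the counts of the 200 rows and 35.4% of those outside mir-12136. When the libraries of a comparison were left out of the sums, a check chosen after seeing the data, between 184 and 199 of the 200 rows were chosen again, and in each of the 14 comparisons below these held every row tested. The filter on low counts used in the tests still drew on those libraries, so this check cannot show that the tested rows are free of selection. The 200 rows held 209071 counts, which was 99.2% of the 210827 counts of all precursor rows.

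Small RNA was sequenced from 3 labelled biological replicates in each of 15 groups. Immunoprecipitated (IP) RNA came from AGO1-/- and WT cells with the AGO1 antibody 2A7, from AGO2-/- and WT cells with the AGO2 antibody 3148, and from AGO1/2/3-/-, AGO1/2-/- and WT cells with a pan-AGO antibody. Whole-cell RNA came from AGO1/2/3-/-, AGO1/2-/-, AGO2-/-, AGO1-/-, TNRC6A/B-/-, TNRC6B-/-, TNRC6A-/- and WT cells, and all knockouts (KO) were derivatives of HCT116. The labels name no clones, so p-values measure the spread between 3 samples of each line, which may be technical. The labels of the TNRC6 KO libraries follow another naming style than those of the AGO KO and WT libraries, so a difference in preparation and the TNRC6 knockouts cannot be told apart.

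In animal cells a miRNA gene is transcribed as a long primary transcript, from which DROSHA cuts the hairpin precursor that DICER then trims to a short duplex. An Argonaute (AGO) protein keeps 1 strand of the duplex as the mature miRNA, and TNRC6 proteins bind AGO and recruit the machinery that silences the target mRNA. Some hairpins reach AGO2 by other routes, for example mirtrons, which are excised by splicing, and a few catalogued hairpins lie within a snoRNA or another structured RNA.

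Hairpin sequences were found in a RefSeq miRNA table (GRCh38.p14) for 168 of the 200 rows, with a median length of 85 bases (50 to 149) and a median GC content of 50.8%, against 58.2% in 338 precursor rows outside the 200. Of these 168 hairpins, 155 lay in a host gene on the same strand, 21 were on chromosome 1 and 16 on chromosome X. The other 32 rows, among them mir-7-1, mir-7705, mir-93 and mir-320a, are given by name. In the sequences below, capitals mark the mature arms that the table lists, so lower-case letters can include an arm that it does not list. For mir-12136, mir-1248, mir-4485, mir-425, mir-21, mir-221 and mir-7-2 it lists 1 mature sequence only. The first set shows rows whose letters also belong to another RNA, among them mir-12136 and mir-1248, which have ranks 1 and 3 by counts. The hairpin of mir-12136 (chr1:632615-632685, minus strand) lies in a nuclear copy of mitochondrial DNA, and 69 of its 71 bases equal the mitochondrial serine tRNA gene MT-TS1.
mir-12136: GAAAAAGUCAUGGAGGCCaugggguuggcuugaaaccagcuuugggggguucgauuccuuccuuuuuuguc
The hairpin of mir-1248 (chr3:186786672-186786777, plus strand, within EIF4A2) shares 103 of its 106 bases with the snoRNA SNORA81.
mir-1248: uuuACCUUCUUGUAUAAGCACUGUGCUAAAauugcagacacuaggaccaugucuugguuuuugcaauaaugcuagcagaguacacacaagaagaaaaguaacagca
The hairpin of mir-4485 (chr11:10508270-10508326, minus strand, within MTRNR2L8) matches the mitochondrial ribosomal RNA gene MT-RNR2 over all 57 bases at 93.0% identity.
mir-4485: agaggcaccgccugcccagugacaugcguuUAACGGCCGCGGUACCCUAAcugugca
The second set holds hairpins that gave many counts without such a match. The hairpin of mir-425 (chr3:49020148-49020234, minus strand, within DALRD3), of mir-21 (chr17:59841266-59841337, plus strand, within VMP1), of mir-196b (chr7:27169480-27169563, minus strand, in the HOXA9 region) and of let-7b (chr22:46113686-46113768, plus strand, in the MIRLET7BHG host gene) are shown because several results below turn on their rows.
mir-425: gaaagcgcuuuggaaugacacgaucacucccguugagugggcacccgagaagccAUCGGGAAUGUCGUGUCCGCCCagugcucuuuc
mir-21: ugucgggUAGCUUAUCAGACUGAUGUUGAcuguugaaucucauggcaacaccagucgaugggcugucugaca
mir-196b: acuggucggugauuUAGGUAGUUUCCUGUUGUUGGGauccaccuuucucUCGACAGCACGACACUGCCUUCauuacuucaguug
let-7b: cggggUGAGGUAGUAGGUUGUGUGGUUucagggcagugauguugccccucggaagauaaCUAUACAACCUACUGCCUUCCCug
The third set holds hairpins whose rows moved with AGO genotype or AGO antibody. These were the neighbours mir-222 (chrX:45747015-45747124) and mir-221 (chrX:45746157-45746266), both on the minus strand in MIR222HG, the mirtron mir-1226 (chr3:47849555-47849629, plus strand, an intron of DHX30), mir-7-2 (chr15:88611825-88611934, plus strand) and mir-454 (chr17:59137758-59137872, minus strand, within SKA2).
mir-222: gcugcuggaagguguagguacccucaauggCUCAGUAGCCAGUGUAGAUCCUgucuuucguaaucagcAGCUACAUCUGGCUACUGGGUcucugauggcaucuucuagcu
mir-221: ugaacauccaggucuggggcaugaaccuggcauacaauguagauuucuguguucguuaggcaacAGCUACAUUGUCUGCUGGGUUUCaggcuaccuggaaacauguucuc
mir-1226: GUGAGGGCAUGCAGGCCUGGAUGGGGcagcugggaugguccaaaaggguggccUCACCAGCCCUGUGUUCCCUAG
mir-7-2: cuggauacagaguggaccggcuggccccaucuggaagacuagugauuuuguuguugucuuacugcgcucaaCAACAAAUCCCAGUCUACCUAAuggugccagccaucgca
mir-454: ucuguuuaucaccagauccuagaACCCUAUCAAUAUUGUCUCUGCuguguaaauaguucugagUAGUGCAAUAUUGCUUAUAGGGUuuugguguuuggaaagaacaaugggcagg

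Counts were concentrated in few rows. mir-12136 alone held 101430 counts, or 48.5% of the counts of the 200 rows, and the 10 highest rows held 76.9%. The next 9 were mir-7-1 with 12906 counts, mir-1248 with 11890, mir-222 with 6228, mir-425 with 5847, mir-21 with 5227, mir-7705 with 4885, mir-182 with 4331, mir-196b with 4203 and let-7b with 3763. At the other end, 108 of the 200 rows had fewer than 100 counts in all, and 11 rows had a count in every library. Per 100 bases of hairpin, the scale on which levels of different rows can be compared, the order of the 8 of these 10 rows that have a hairpin sequence (mir-7-1 and mir-7705 have none) was 142859 counts for mir-12136, 11217 for mir-1248, 7260 for mir-21, 6721 for mir-425, 5662 for mir-222, 5004 for mir-196b, 4534 for let-7b and 3937 for mir-182. The 5 last rows taken, mir-10393, mir-1228, mir-1285-1, mir-196a-2 and mir-8086, had 20 counts each. Just outside the choice, mir-15a, mir-197, mir-3658 and mir-590 had 19 and mir-151a had 18. Rows this low hold too few counts for a comparison between groups.

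**Figure D1:**
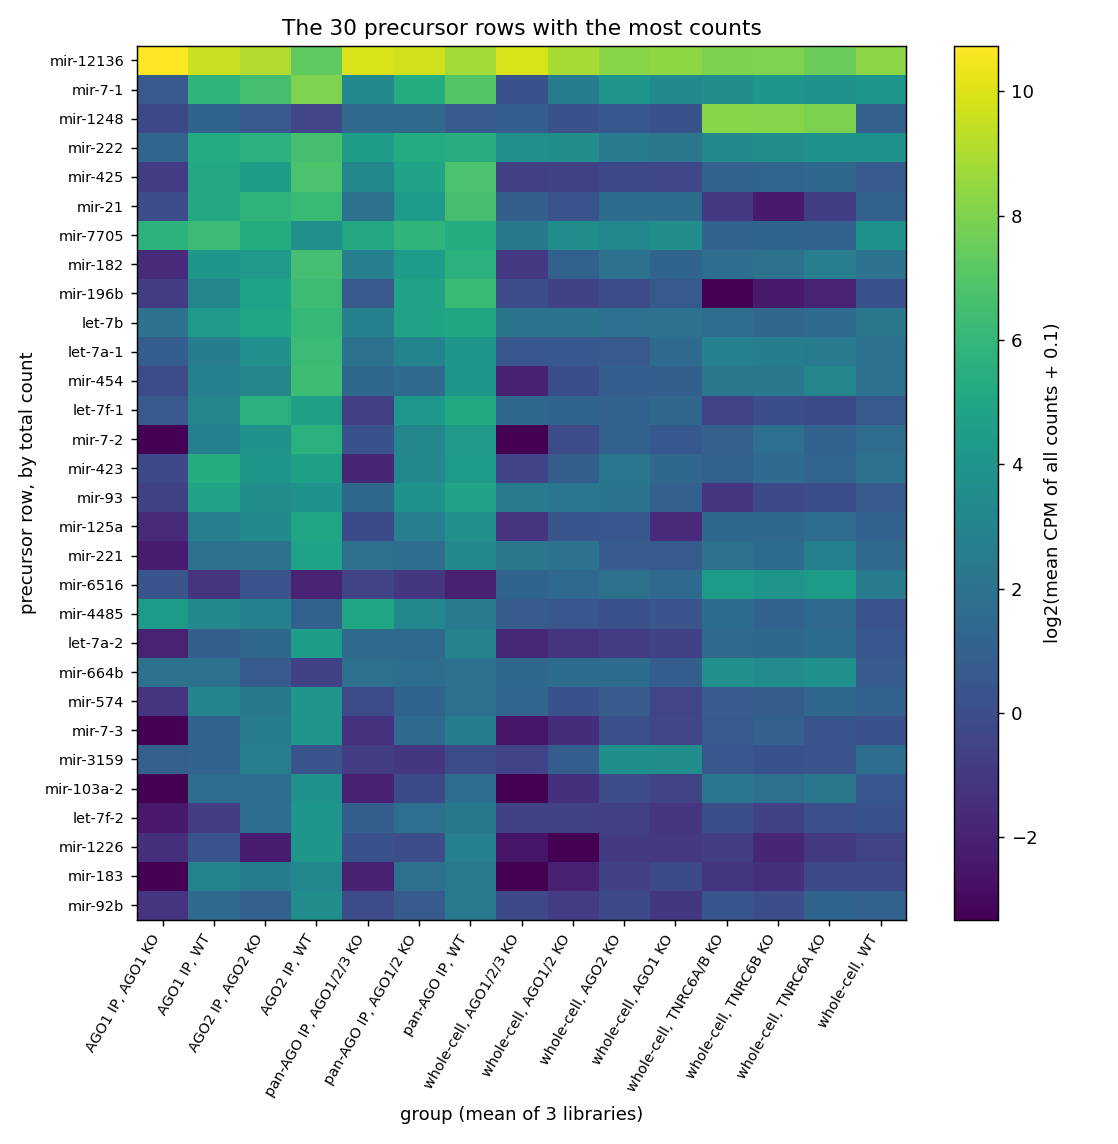
Mean level of the 30 precursor rows with the most counts (rows of the map, ordered by total count) in the 15 groups (columns), as log2 of the mean CPM (counts per 1000000 counts of a library) plus 0.1 over 3 libraries. mir-12136 is high in all groups, mir-1248 is high in whole-cell RNA of the 3 TNRC6 KO lines, and most other rows are highest in the IP groups of WT cells.

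A search of the 168 hairpins against annotated transcripts found 9 rows whose sequence lies in another small RNA over at least 70% of the hairpin. Besides the 3 printed above they were mir-6516 and mir-1843 (scaRNAs) and mir-664b, mir-664a, mir-1291 and mir-3651 (snoRNAs SNORA36A, SNORA36B, SNORA2C and SNORA84). The sources used here do not say how the authors counted a read that fits both a hairpin row and another row, so a count in these 9 rows cannot be assigned to a hairpin. Libraries fall into clusters by RNA source, so each row was set against the matching RNA within a kind of library. The level of mir-12136 followed that of the mitochondrial serine tRNA row over the 21 IP libraries (Spearman's rho 0.91) and the 9 TNRC6 KO libraries (0.72), but not over the 15 other whole-cell libraries (-0.0036). For mir-1248 and the SNORA81 row the values were 0.50, 0.95 and 0.57 over the same 3 kinds of library. The other 191 rows are given apart from these 9 wherever sums are compared. They include the 32 rows without a hairpin sequence, mir-7-1 and mir-7705 among them, which could not be searched.

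**Figure D2:**
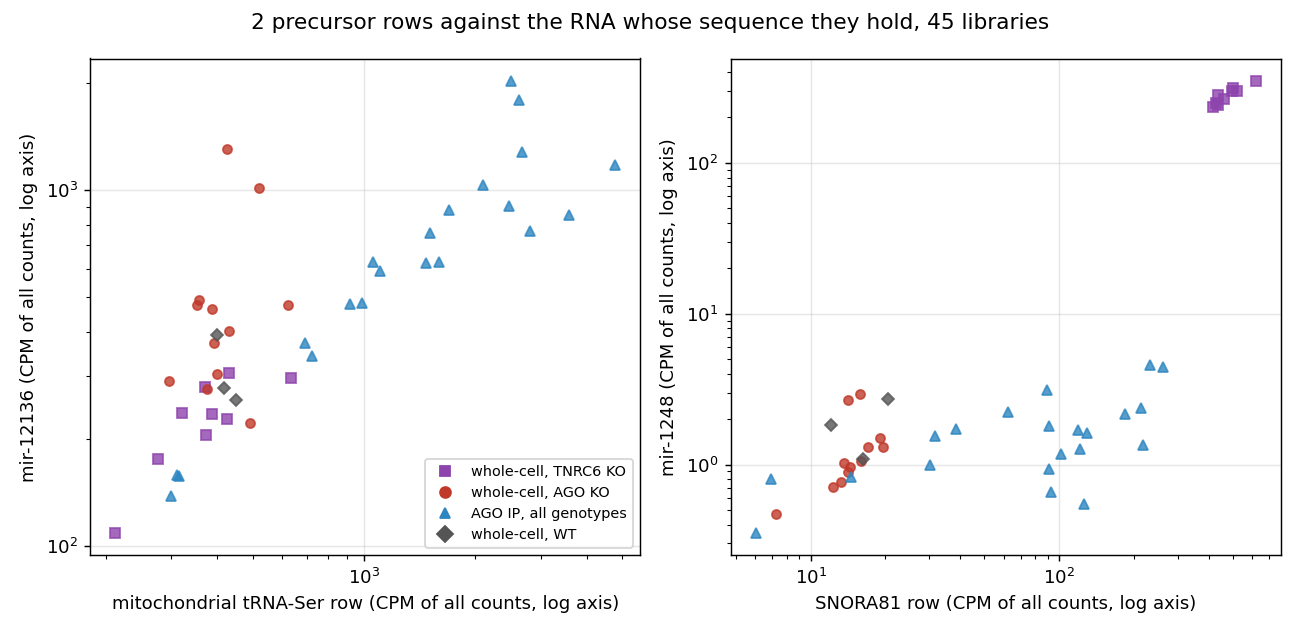
Level of mir-12136 against the mitochondrial serine tRNA row and of mir-1248 against the SNORA81 row in 45 libraries, in CPM on log axes; each symbol is 1 library and its shape and colour give the kind of library. The 9 TNRC6 KO libraries form a separate cloud at high SNORA81 and high mir-1248 levels.

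Libraries held 1783590 to 9860313 counts, of which 35768 to 7103985 fell on mature rows. Many whole-cell values below rest on fewer than 20 counts per library, so depth limits those comparisons. Epithelial and colon miRNAs made up 3.52% to 3.77% of mature counts in WT whole-cell RNA, against 0.00715% to 0.00947% for blood miRNAs. AGO1 mRNA fragments were 0.367 to 1.33 CPM in the 3 whole-cell KO groups that lack AGO1, against 3.10 to 6.03 CPM in WT. AGO2 fragments were 16.9 to 20.1 CPM in AGO1/2/3 KO, 16.1 to 22.3 CPM in AGO1/2 KO and 5.61 to 14.2 CPM in AGO2 KO, against 11.5 to 16.9 CPM in WT. AGO2 fragments thus were not lower than WT in the lines labelled AGO1/2/3-/- and AGO1/2-/-, and the AGO2 KO and WT ranges overlap. AGO3 fragments were 0.367 to 1.97 CPM in AGO1/2/3 KO, against 3.92 to 6.93 CPM in WT. TNRC6A fragments were 1.62 to 2.89 CPM in TNRC6A KO, against 2.73 to 4.11 CPM in WT, which overlap. In TNRC6A/B KO they were 1.52 to 2.50 CPM, below WT. TNRC6B fragments were 1.61 to 4.45 CPM in TNRC6B KO and 1.90 to 3.51 CPM in TNRC6A/B KO, below the 4.92 to 6.03 CPM in WT. They were also below WT in AGO1/2/3 KO, at 2.57 to 3.97 CPM. Neither the labels nor the files used here say which stretch of each gene was deleted, so fragments outside it check nothing, and the lines are named below by their labels.

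3 libraries stood apart from their replicates. In the AGO1 IP of WT cells, mature counts made up 26.8% of replicate 1, against 13.3% and 11.3% of the others. In the pan-AGO IP of AGO1/2/3 KO cells they made up 2.82% of replicate 3, against 10.3% and 10.8%. In whole-cell RNA of AGO1/2/3 KO cells, replicate 1 had 475 CPM of mir-12136, against 1015 and 1306 CPM. Counts of called rows that rest on these libraries are given with and without them, as are the summed IP shares of all counts below.

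The 191 rows for which no match to another small RNA was found include 32 that were not searched. In WT cells they took a larger share of AGO-bound RNA than of whole-cell RNA. With each antibody their share was lower in KO than in WT libraries. They made up 0.0647% ± 0.0174 of all counts in the AGO2 IP of AGO2 KO cells and 0.148% ± 0.00482 in that of WT cells (SD, n = 3 each). In the AGO1 IP the share was 0.0104% ± 0.00292 in AGO1 KO cells and 0.0544% ± 0.0385 in WT cells, or 0.0322% without WT replicate 1, the library that stood apart. In the pan-AGO IP it was 0.0166% ± 0.00734 in AGO1/2/3 KO cells, 0.0436% ± 0.00690 in AGO1/2 KO cells and 0.0935% ± 0.0237 in WT cells. Without AGO1/2/3 KO replicate 3, which stood apart, the share in AGO1/2/3 KO cells was 0.0208%. In each antibody every KO library lay below every WT library. In WT cells the IP shares also lay above the whole-cell share of 0.0129% ± 0.000491 in every library.

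The summed share of the 9 rows that match another small RNA ran the other way, and mir-12136 alone made up nearly all of it. The 9 rows took 0.172% ± 0.0371 of the AGO1 IP of AGO1 KO cells, against 0.0781% ± 0.0237 in WT cells, and 0.0541% ± 0.00833 of the AGO2 IP of AGO2 KO cells, against 0.0156% ± 0.00107 in WT cells. In the pan-AGO IP they took 0.0971% ± 0.0225 in AGO1/2/3 KO cells, 0.0863% ± 0.00777 in AGO1/2 KO cells and 0.0449% ± 0.0142 in WT cells. Without the libraries that stood apart, they took 0.0851% of the AGO1 IP of WT cells and 0.1055% of the pan-AGO IP of AGO1/2/3 KO cells. Every KO library was above every WT library with the same antibody. The share of mir-12136 alone was 0.17% in the AGO1 IP of AGO1 KO cells, against 0.0765% in WT cells, and 0.0529% in the AGO2 IP of AGO2 KO cells, against 0.0152% in WT cells. In the pan-AGO IP it was 0.0934% in AGO1/2/3 KO cells, 0.0848% in AGO1/2 KO cells and 0.0437% in WT cells. The sum over all 200 rows combined both movements and was 0.119% of counts in the AGO2 IP of AGO2 KO cells and 0.164% in that of WT cells. These shares move with the mature share, which was 19.0% in the AGO2 IP of AGO2 KO cells and 81.4% in that of WT cells.

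**Figure D3:**
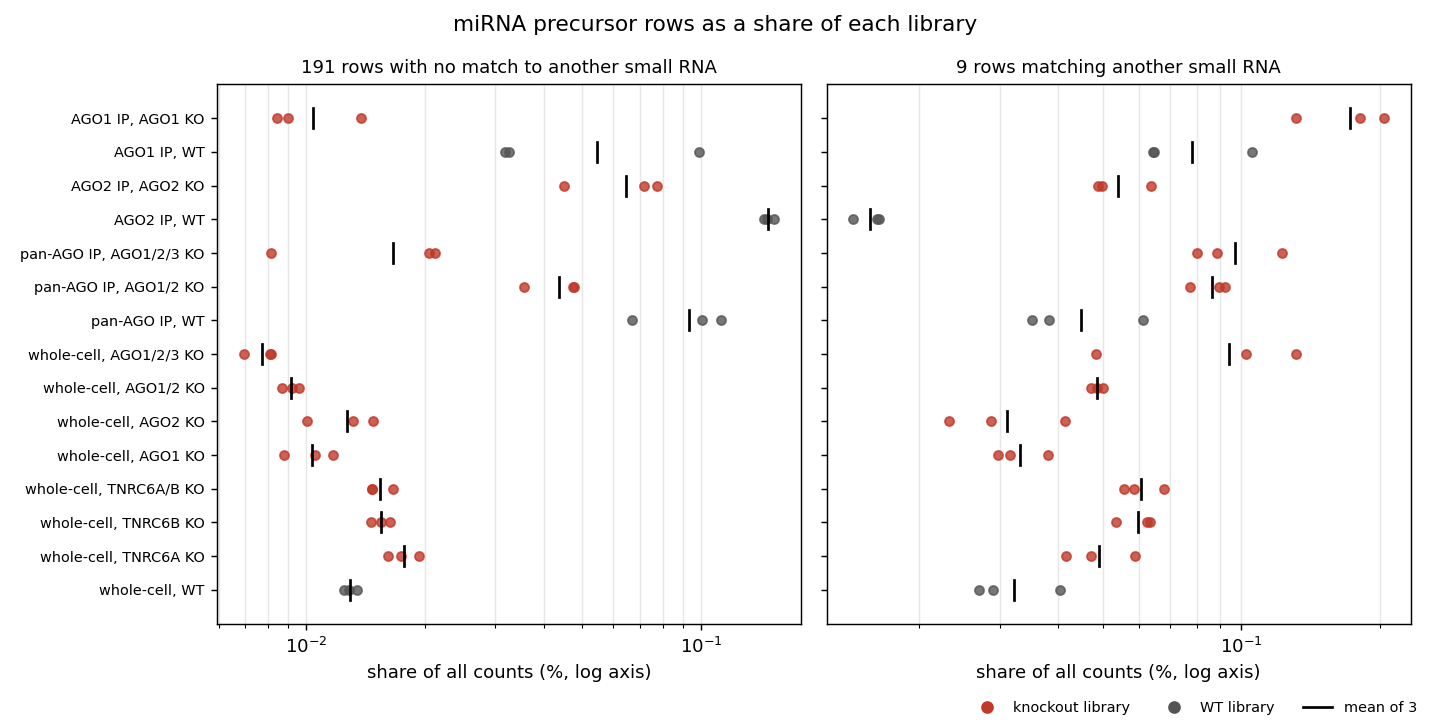
Share of all counts on a log axis taken by 191 precursor rows (left) and by the 9 rows that match another small RNA (right), for 45 libraries in 15 groups. No such match was found for the 191 rows, of which 32 had no sequence to search. Points are libraries and bars are means of 3. With each antibody the KO libraries lie left of the WT libraries in the left panel and right of them in the right panel.

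Set against mature counts, the 191 rows took a larger part of miRNA counts in whole-cell RNA of every AGO KO line. Their share of miRNA counts (precursor plus mature) was 0.486% ± 0.0839 in AGO1/2/3 KO, 0.411% ± 0.0127 in AGO1/2 KO, 0.355% ± 0.0245 in AGO2 KO cells, 0.410% ± 0.0128 in AGO1 KO cells and 0.253% ± 0.0157 in WT cells (SD, n = 3 each). No AGO KO library overlapped the WT libraries. As a share of all counts the same rows were not higher on average, at 0.00772% in AGO1/2/3 KO, 0.00914% in AGO1/2 KO, 0.0126% in AGO2 KO cells, 0.0103% in AGO1 KO cells and 0.0129% in WT cells. In the TNRC6 KO lines the same share was 0.159% ± 0.0292 in TNRC6A/B KO, 0.201% ± 0.0118 in TNRC6B KO and 0.194% ± 0.0335 in TNRC6A KO cells, and all 9 libraries lay below the WT libraries. Their share of all counts was 0.0153% in TNRC6A/B KO, 0.0155% in TNRC6B KO and 0.0176% in TNRC6A KO cells, above that of WT cells. Mature rows themselves made up 1.62% of all counts in AGO1/2/3 KO, 2.22% in AGO1/2 KO, 3.56% in the AGO2 KO line, 2.51% in the AGO1 KO line, 7.71% to 9.93% in the TNRC6 KO lines and 5.11% in WT cells. In bulk RNA, fewer cells that hold an RNA and less of it per cell cannot be told apart.

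Single rows were tested with edgeR's quasi-likelihood test over all features of the table, after TMM scaling, so log2 fold changes are relative to the typical feature, whereas CPM are relative to all counts of a library. A row was called at a Benjamini-Hochberg adjusted p under 0.05. Of the 200 rows, 44 passed the filter on low counts in whole-cell RNA, 68 in the IP libraries and 68 in the 12 WT libraries. The filter keeps a row that is high in 1 group only, so counts over tested rows are a description.

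In whole-cell RNA of AGO1/2/3 KO cells the rows of mir-7-1, mir-7-2, mir-454 and mir-182 were lower, whereas mir-93, mir-320a and mir-12136 were higher. 4 of the 44 rows tested were called higher and 12 lower, where 10.9% and 12.3% of all 18805 features were called higher and lower. mir-7-1, a precursor of miR-7, had 1.1, 1.53 and 0.530 CPM in AGO1/2/3 KO libraries, against 15.7, 18.6 and 15.3 CPM in WT libraries (log2 fold change -3.54, SE 0.39, edgeR adjusted p = 3.915e-08). The groups were far apart. mir-7-2, another precursor of miR-7, had 0 counts in the 3 AGO1/2/3 KO libraries, against 3.84, 2.94 and 2.55 CPM in WT libraries (0 against 50 counts, at least 8.87-fold lower). mir-454 had 0, 0.438 and 0 CPM in AGO1/2/3 KO, against 3.84, 3.33 and 4.01 CPM in WT (log2 fold change -3.89, SE 0.68, adjusted p = 6.276e-05). mir-182 and mir-423 also fell, with log2 fold changes of -2.70 and -2.36, and their groups did not overlap.

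mir-93, from the cluster in MCM7 that also encodes miR-25 and miR-106b, had 4.03, 5.91 and 6.89 CPM in AGO1/2/3 KO, against 1.46, 1.76 and 1.28 CPM in WT whole-cell RNA (log2 fold change 2.29, SE 0.40, edgeR adjusted p = 6.657e-05). mir-320a, a hairpin known to be made without DROSHA, had 1.47, 3.72 and 3.44 CPM, against 0.731, 0.783 and 0.365 CPM in WT (log2 fold change 2.61, SE 0.64, adjusted p = 0.002938). Neither row overlapped between groups. mir-12136 rose as well (log2 fold change 1.96, SE 0.37, adjusted p = 0.0001988), beside a mitochondrial serine tRNA row at 522 ± 98.7 CPM in AGO1/2/3 KO and 423 ± 26.0 CPM in WT cells, and the part of that tRNA in the rise was not tested. Without AGO1/2/3 KO replicate 1, which stood apart, 13 rows were called, and without replicate 3 only 9. mir-7705 (log2 fold change -1.17) and mir-3159 (-1.96) lost their calls when single libraries were left out, at adjusted p of up to 0.0868 and up to 0.115.

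Fewer rows passed the test in the other AGO KO lines. In AGO1/2 KO cells 1 row was called higher and 3 lower, where 1.83% and 2.17% of features were called higher and lower. mir-7-1 had 4.62, 6.95 and 6.57 CPM in AGO1/2 KO, against 15.7, 18.6 and 15.3 CPM in WT (log2 fold change -1.42, SE 0.28, edgeR adjusted p = 0.001848). mir-454 (-1.92), mir-7-2 (-1.76) and mir-93 (1.61) changed the same way as in the AGO1/2/3 KO line, which shares the WT libraries. Each of those 3 calls was lost when some single library was left out (adjusted p of up to 0.0944), and 2 rows were called without KO replicate 3 or without WT replicate 1. With TMM factors from mature rows, 5 rows were called higher and 2 lower.

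In AGO1 KO cells 1 row was called higher and 6 lower, where 3.79% and 3.88% of features were called higher and lower. mir-222, which lies next to mir-221 on the X chromosome, had 5.27, 5.49 and 3.32 CPM in AGO1 KO, against 15.2, 15.5 and 11.3 CPM in WT (log2 fold change -1.64, SE 0.30, edgeR adjusted p = 0.0006215). mir-125a fell to 5 counts in all in AGO1 KO, against 32 in WT (log2 fold change -3.20, SE 0.73, adjusted p = 0.004915). Both groups of libraries were apart for both rows. mir-3159, a precursor row with no mature row of its name, rose to 10.8, 7.14 and 18.3 CPM in AGO1 KO, against 2.92, 2.74 and 4.01 CPM in WT (log2 fold change 1.77, adjusted p = 0.002679). It was the only row called in AGO2 KO cells, at 9.05, 20.8 and 8.87 CPM (log2 fold change 2.10, SE 0.38, adjusted p = 0.008283), where 0.0266% of features were called higher and 0.133% lower. In AGO2 KO its call was lost without KO replicate 2, WT replicate 1 or WT replicate 2 (adjusted p of 0.0834 to 0.129), and 4 rows were called in AGO1 KO without KO replicate 1, KO replicate 3 or WT replicate 1. With TMM factors from mature rows, 2 rows were called higher and 2 lower in AGO1 KO.

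In the TNRC6 KO lines the rows that hold snoRNA sequence were far higher, and the rows of let-7b, let-7f-1, mir-21 and mir-7705 were lower. In TNRC6A/B KO 14 rows were called higher and 11 lower, where 16.8% and 20.2% of all features were called higher and lower. For TNRC6B KO the rows were 14 and 8 and the features 16.4% and 20.4%, and for TNRC6A KO they were 14 and 9 rows and 17.2% and 20.2% of features. All 3 comparisons share the WT libraries. mir-1248 had 302, 301 and 313 CPM in TNRC6A/B KO, 283, 251 and 349 CPM in TNRC6B KO, 244, 233 and 264 CPM in TNRC6A KO, and 1.1, 2.74 and 1.82 CPM in WT. Its log2 fold changes were 6.75, 6.66 and 6.45 in that order (SE 0.38 each, edgeR adjusted p of at most 1.984e-15). The SNORA81 row moved with it, at 507 ± 12.1, 495 ± 106 and 438 ± 22.3 CPM in the 3 KO groups and 16.3 ± 4.27 CPM in WT.

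All 5 tested rows of the 6 snoRNA-like rows were called higher in each TNRC6 KO line, with median log2 fold changes of 4.59 in TNRC6A/B KO, 4.36 in TNRC6B KO and 4.42 in TNRC6A KO, against medians of all features between -0.0415 and 0.00532. None of the 5 was called in any AGO KO line. The 6 rows do not include mir-6516, which holds a scaRNA. In AGO1 KO cells mir-6516 was called lower (log2 fold change -1.15, edgeR adjusted p = 0.04463). That call was lost in 4 of the fits that left out 1 library (adjusted p of 0.0584 to 0.286). mir-1291 had 0 counts in WT libraries and 5.01 to 10.7 CPM in TNRC6A/B KO, 5.64 to 6.73 CPM in TNRC6B KO and 5.39 to 6.87 CPM in TNRC6A KO, which was at least 31.6-fold, 21.1-fold and 22.1-fold higher. mir-3651 rose by 4.59, 4.36 and 4.42 on the log2 scale. The SNORA36A row, which holds mir-664b, was at 16.8, 17.5 and 18.5 CPM in the 3 KO groups and 0.439 CPM in WT. Since these libraries differ from WT in label style too, the knockout and a difference in preparation cannot be told apart here.

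mir-7705 had 1.53, 3.90 and 0.761 CPM in TNRC6A/B KO, 2.69, 1.47 and 2.37 CPM in TNRC6B KO and 1.30, 2.16 and 2.71 CPM in TNRC6A KO, against 13.3, 13.3 and 16.0 CPM in WT (log2 fold changes -3.58, -3.35 and -3.31). No KO library came near the WT libraries. mir-21, the hairpin of a miRNA that is abundant in carcinoma cells, fell by 2.67, 4.73 and 2.45 on the log2 scale, on 7, 1 and 7 counts in the KO groups and 32 in WT. Its call was lost without WT replicate 3 in TNRC6A/B KO (adjusted p = 0.0592) and in TNRC6A KO (0.096). let-7b, a let-7 precursor, had 1.88, 2.74 and 2.67 CPM in TNRC6B KO, against 5.30, 4.5 and 4.19 CPM in WT (log2 fold change -1.55, SE 0.39, adjusted p = 0.001898). Of the 5 let-7 rows tested, let-7b and let-7f-1 fell in each TNRC6 KO line and none rose, whereas with scaling by total counts 0 fell and 2 rose in TNRC6A/B KO, 1 fell and 0 rose in the TNRC6B KO line, and 0 fell and 1 rose in the TNRC6A KO line. Under the same scaling the splits over all tested rows of higher and lower rows were 19 and 4 (TNRC6A/B KO), 16 and 4 (TNRC6B KO line) and 20 and 3 (TNRC6A KO line), the median feature moved by 0.572 to 0.584 on the log2 scale, and let-7b in TNRC6A KO was no longer called (adjusted p = 0.125).

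**Figure D4:**
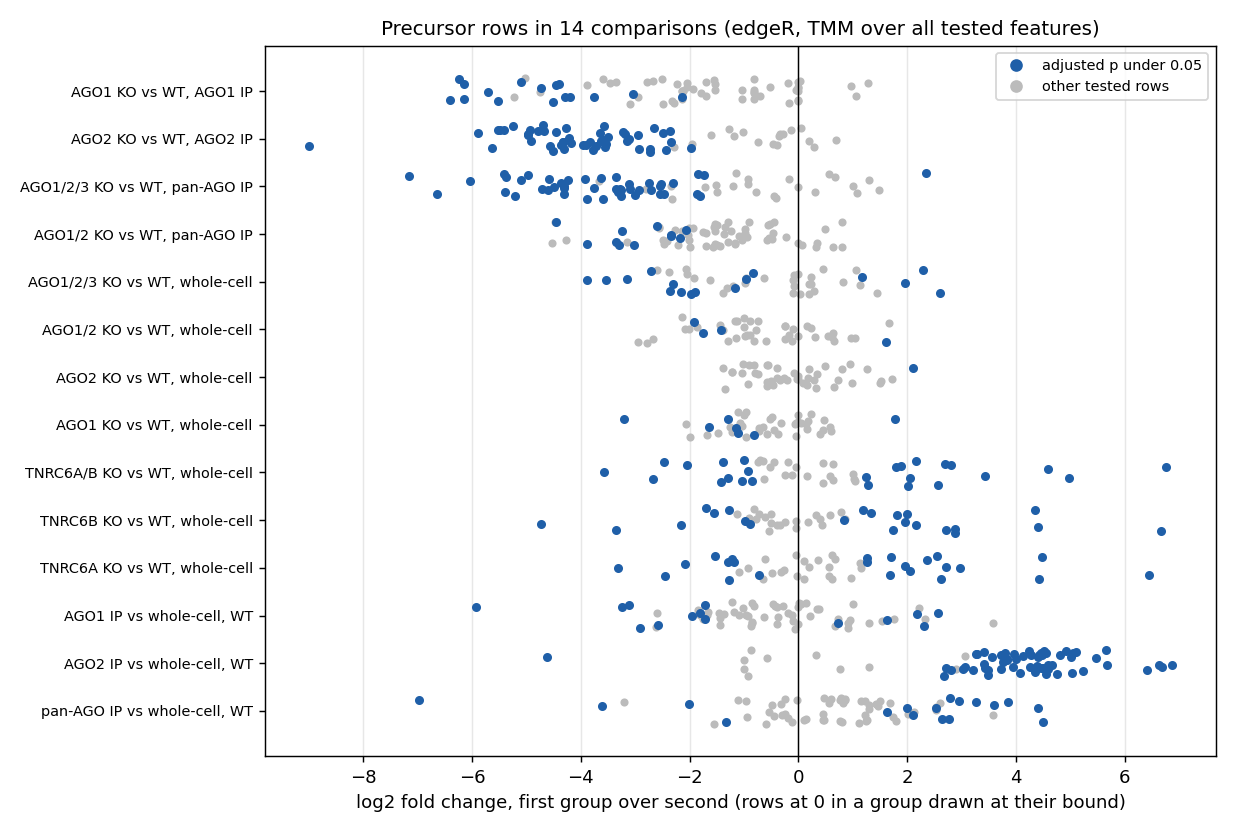
Log2 fold changes (first group over second) of the precursor rows tested in 14 comparisons; each point is 1 row, blue points were called by edgeR at an adjusted p under 0.05, and rows at 0 counts in a group are drawn at their bound. In the IP comparisons of KO with WT nearly all called rows lie below 0, and in AGO2 IP against whole-cell RNA nearly all lie above 0.

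In the AGO2 IP most tested hairpin rows, let-7 rows and those of abundant colon and cancer hairpins among them, were lower in AGO2 KO cells. 51 of the 68 rows tested were called, all lower, where 3.92% of the 32538 features were called lower and 0.24% higher. The median log2 fold change of the 68 rows was -3.56, against 0.08 over all features. mir-1226, the mirtron of DHX30, had 0, 0 and 0.344 CPM in AGO2 KO libraries, against 18.2, 19.2 and 13.9 CPM in WT libraries (log2 fold change -9.00, SE 0.82, edgeR adjusted p = 1.012e-07). mir-454 had 9.13, 8.19 and 7.91 CPM in AGO2 KO, against 79.2, 87.8 and 78.0 CPM in WT (log2 fold change -5.40, SE 0.66, adjusted p = 4.244e-06). let-7a-2 had 2.38, 2.73 and 2.58 CPM in AGO2 KO, against 22.9, 23.5 and 20.3 CPM in WT (log2 fold change -5.24, SE 0.51, adjusted p = 1.9e-07). The libraries of the 2 genotypes did not overlap in any of these rows.

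mir-374a, mir-130b, mir-301a, mir-126 and let-7g fell by 4.97 to 5.89 on the same scale. Of 10 let-7 rows tested, 9 fell and none rose, with a median of -3.86. Of 10 tested rows of hairpins that are abundant in colon or cancer cells, such as mir-21, mir-31, mir-425 and mir-7-1, 9 fell. Both tested mirtrons, both tested miR-200 rows and all 3 tested rows of the miR-17-92 family fell, and none of the 4 tested rows that match another small RNA was called. Scaling by total counts gave 10 rows higher and 38 lower, with a shift of the median feature of 2.17 on the log2 scale, and let-7a-3, at -1.98 in the test above, was then at 0.13 and not called. With it 5 of the 10 let-7 rows fell and 1 rose, 8 of the 10 abundant rows fell and 1 rose, both mirtrons fell, and 1 row each of the miR-200 and miR-17-92 families fell. TMM factors from mature rows gave 5 higher and 47 lower.

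With the AGO1 antibody, 16 of the 68 rows were called, all lower in AGO1 KO cells, where 1.19% of features were called lower and 0.0799% higher. mir-7-2 had 0 counts in AGO1 KO, against 11.9, 4.08 and 3.61 CPM in WT (0 against 62 counts, at least 18.3-fold lower, edgeR adjusted p = 0.003773). mir-34a, the hairpin of a gene that p53 activates, had 0 counts in AGO1 KO, against 32.1, 1.36 and 4.74 CPM in WT, and mir-183 had 0 counts, against 18.9, 1.36 and 3.61 CPM. The high values of both rows came from WT replicate 1, the library that stood apart. Without it the calls of mir-34a, mir-183 and mir-16-2 were lost (adjusted p of 0.0998 to 0.167), as they were without any 1 KO library (adjusted p of 0.0583 to 0.205), and 9 rows were called. mir-21 and mir-425 fell by 5.52 and 6.41 on the log2 scale. In AGO1 KO libraries 52 to 61 of the 200 rows had any count, against 101 to 146 in WT libraries.

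With the pan-AGO antibody, mir-20a, mir-301a and mir-374a were among the rows lower in both KO lines, which share the WT libraries and were not tested against each other. In AGO1/2/3 KO cells 1 row was called higher and 44 lower, where 9.86% and 10.3% of features were called higher and lower. mir-423 had 0.561, 0 and 0 CPM in AGO1/2/3 KO, against 25.2, 9.63 and 25.8 CPM in WT (log2 fold change -7.16, SE 1.43, edgeR adjusted p = 0.001058). mir-501 had 0 counts, against 4.20, 1.82 and 6.79 CPM in WT (at least 12.4-fold lower). The row that rose was mir-4485, at 42.6, 27.7 and 20.1 CPM in AGO1/2/3 KO, against 4.20, 8.72 and 3.69 CPM in WT (log2 fold change 2.35, SE 0.38, adjusted p = 0.0001406), and its letters match mitochondrial ribosomal RNA. mir-320a and mir-181b-1 had 0 counts in AGO1/2/3 KO, at least 12-fold and 10.3-fold lower, and lost their calls without KO replicate 3 or WT replicate 3 (adjusted p of 0.0591 to 0.0814). Without KO replicate 3, the library that stood apart, 24 rows were called in all, and 26 without WT replicate 3.

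In AGO1/2 KO cells 11 rows were called, all lower, where 1.61% of features were called lower and 1.03% higher. mir-20a had 0.269, 0 and 0.406 CPM in AGO1/2 KO, against 6.73, 3.09 and 2.07 CPM in WT (log2 fold change -4.45, SE 0.89, edgeR adjusted p = 0.00834). mir-374a had 0 counts in AGO1/2 KO, against 34 in WT (at least 9.41-fold lower). mir-301a and mir-1226 fell by 3.89 and 3.35 on the log2 scale. The calls of mir-20a, mir-301a and mir-1226 were lost without KO replicate 1 (adjusted p of 0.0573 to 0.0861). The count of called rows was 1, 2 and 7 without KO replicates 1, 2 and 3, 17 without WT replicate 2 and 2 without WT replicate 3, so it rests on single libraries.

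In WT cells most tested hairpin rows were higher in the AGO2 IP than in whole-cell RNA. Of the 68 rows, 57 were called higher and 1 lower, where 7.25% and 8.9% of 27657 features were called higher and lower. mir-374a had 3.89, 4.03 and 5.22 CPM in the AGO2 IP and 0 counts in whole-cell RNA, which was at least 32.6-fold higher. mir-181b-1, mir-501, mir-1296 and mir-181a-1 were likewise at 0 in whole-cell RNA and at least 24.2-fold, 23.6-fold, 20.4-fold and 18.9-fold higher in the IP. Of the let-7 rows, 10 of 10 tested were higher, with a median log2 fold change of 4.49, against -0.04 over all features. The row that fell was mir-6516, which holds a scaRNA, at 0.118, 0.115 and 0.237 CPM in the AGO2 IP, against 6.03, 6.85 and 4.01 CPM in whole-cell RNA (log2 fold change -4.62, SE 0.54, edgeR adjusted p = 1.206e-05). The split was 59 and 2 with scaling by total counts and 59 and 6 with TMM factors from mature rows.

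With the AGO1 antibody 5 rows were higher and 9 lower than in whole-cell RNA, where 12.2% and 15.1% of features were. mir-425 had 60.8, 28.5 and 17.4 CPM in the AGO1 IP, against 1.28, 1.96 and 1.28 CPM in whole-cell RNA (log2 fold change 2.56, SE 0.60, edgeR adjusted p = 0.00408). mir-21 (2.18) and mir-93 (2.31) rose, but without IP replicate 1 their adjusted p were 0.278 and 0.202. This comparison depended on the scaling. The split was 34 and 1 with total counts and 22 and 4 with TMM factors from mature rows, where the median feature moved by 2.23 under total counts and mir-1248, mir-221, mir-4521 and mir-92b changed sign. Without IP replicate 1, 30 rows were called, and 6, 8 and 8 without whole-cell replicates 1, 2 and 3.

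With the pan-AGO antibody 13 rows were higher and 4 lower than in whole-cell RNA, where 13.1% and 15.5% of features were. mir-1296 had 8.41, 6.90 and 4.13 CPM in the pan-AGO IP and 0 counts in whole-cell RNA (at least 9.66-fold higher), and mir-20a was at least 5.74-fold higher. mir-196b, mir-425 and mir-21 rose by 4.40, 4.49 and 3.85 on the log2 scale. The rows that fell were mir-6516 (-6.97), mir-3159 (-3.61), mir-1248 (-2.0) and mir-12136 (-1.33). The split was 57 and 2 with total counts, where mir-12136 changed sign, and 44 and 3 with TMM factors from mature rows.

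The ratio of a precursor row to the mature rows of its name does not depend on library scaling. It was tested with limma on log2 ratios with a pseudocount of 0.5, over rows with at least 10 precursor and 50 mature counts on average, and 12 rows qualified in whole-cell RNA, 44 in the IP libraries and 52 in the WT libraries. All of these rows were among the 200, so the percent of rows called, given below, is no independent background. Calls are given for rows with at least 10 precursor counts in each group, because the pseudocount can set the sign below that. This rule also leaves out rows whose precursor was nearly lost in a KO group, so the kept calls can lean to higher ratios. 10 of the 200 rows had no mature row of their name, and a miRNA made from several hairpins, such as miR-7-5p, stands in the ratio of each.

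In whole-cell RNA the precursor-to-mature ratios of mir-93 and mir-221 rose in both AGO1/2/3 KO and AGO1/2 KO cells. The few calls in AGO2 KO and AGO1 KO cells were lost when single libraries were left out. In AGO1/2/3 KO cells 6 of 12 ratios (50%) were called higher, 5 of them with enough counts, and 0 lower. mir-93 precursor counts were 21.6%, 42.9% and 76.5% of mature counts in AGO1/2/3 KO libraries, against 0.426%, 0.463% and 0.401% in WT libraries (log2 ratio change 6.53, SE 0.74, limma adjusted p = 1.391e-07). The totals behind this were 64 precursor and 148 mature counts in AGO1/2/3 KO, against 24 and 5570 in WT. The mir-221 ratio was 6.25%, 24.4% and 28.4%, against 0.766%, 0.393% and 0.631% in WT (4.82, SE 0.52, adjusted p = 1.239e-07). The mir-222 ratio was 4.31%, 7.39% and 4.80%, against 1.70%, 1.76% and 1.65% in WT (1.66, SE 0.26, adjusted p = 1.457e-05). None of the 3 ratios overlapped between groups.

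In AGO1/2 KO cells 4 ratios (33.3%) were called higher. Among them the call of mir-423 (1.05) was lost in 5 of the fits that left out 1 library (limma adjusted p of 0.058 to 0.172). The mir-93 ratio was 9.91%, 10.5% and 13.7% (log2 ratio change 4.65, limma adjusted p = 4.46e-05) and the mir-221 ratio was 4.71%, 3.68% and 3.99% (2.83, adjusted p = 0.0001489), against the same WT values. In AGO2 KO cells 2 ratios (16.7%) were higher, that of mir-10401 (2.78, adjusted p = 0.01658) and that of mir-93 at 2.28%, 1.54% and 2.80% (2.27, adjusted p = 0.03636). In AGO1 KO cells 3 ratios (25%) were higher, those of let-7b (1.12), let-7a-1 (0.92) and mir-423 (1.17). For let-7b they were 0.612%, 0.503% and 0.414% in AGO1 KO, against 0.225%, 0.217% and 0.251% in WT. The calls in both lines were lost at minimum mean counts of 3 and 15 (adjusted p of 0.0732 to 0.106). In AGO2 KO the mir-93 call was lost in each of the 6 fits that left out 1 library (adjusted p of 0.0698 to 0.141). The mir-10401 call was lost in 3 of them (up to 0.102). In AGO1 KO each call was lost in 3 to 5 of the fits that left out 1 library (up to 0.138). The ratio counts were 0 or 1 in AGO2 KO in each of those fits, and in AGO1 KO 0 without KO replicate 2, WT replicate 1 or WT replicate 2 and 1 without KO replicate 3 or WT replicate 3.

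**Figure D5:**
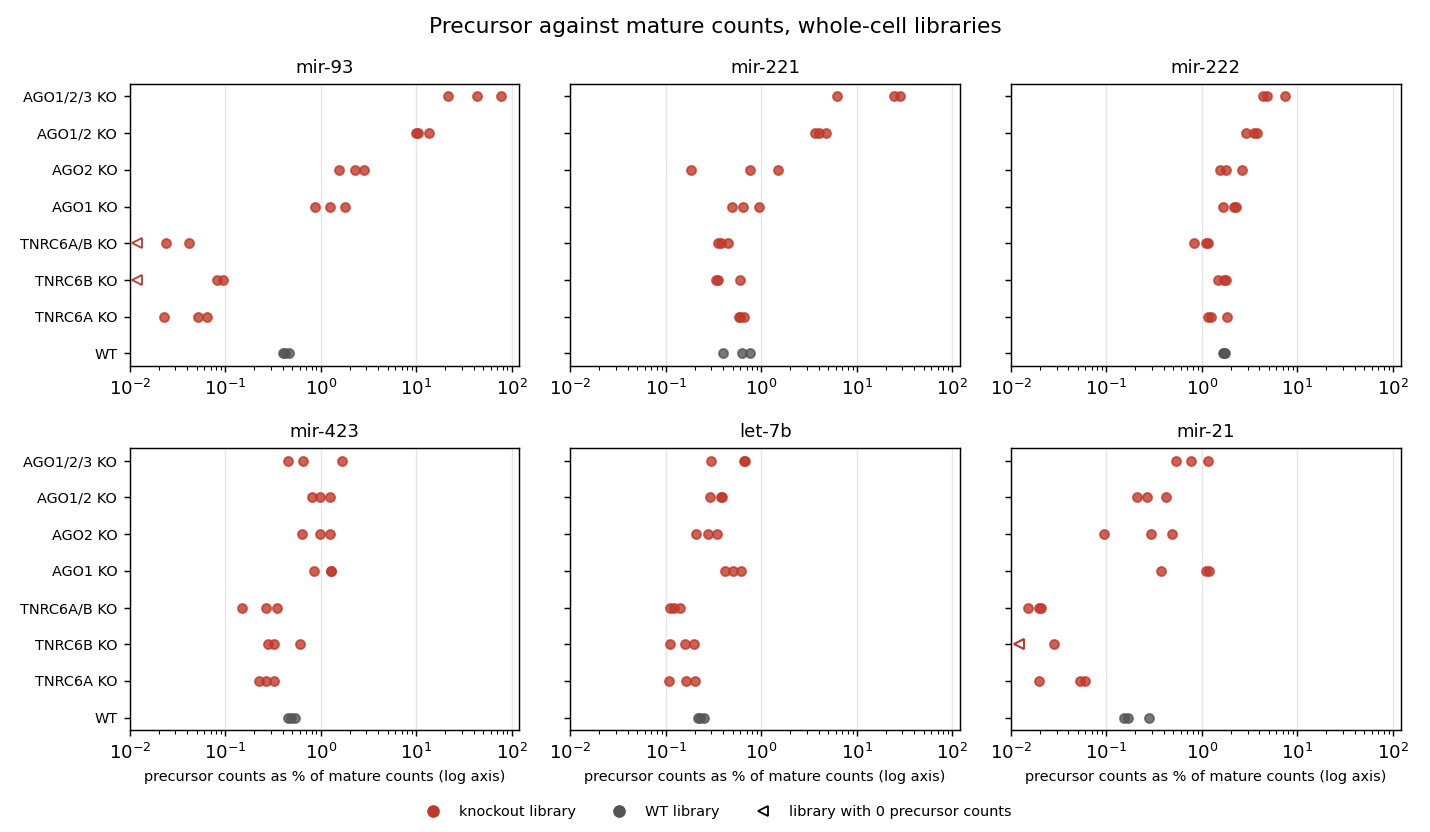
Precursor counts as a percent of the mature counts of the same name (log axis) for 6 rows in the 8 whole-cell groups; each point is 1 library and open triangles are libraries with 0 precursor counts. For mir-93 the AGO1/2/3 KO libraries lie at 21.6% to 76.5%, against 0.401% to 0.463% in WT.

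In the TNRC6 KO lines the ratio of mir-12136 fell, by 2.58 on the log2 scale in TNRC6A/B KO, 2.44 in TNRC6B KO and 2.79 in TNRC6A KO, with limma adjusted p of at most 2.857e-06. Counts of this row cannot be assigned to a hairpin, so the fall cannot be read as a change of precursor against mature miRNA. Its mature row had 3505, 2453 and 2327 counts in those 3 groups, against 727 in WT. Its precursor row had 4132, 3064 and 2281 counts, against 4988 in WT. In TNRC6A/B KO 6 of 12 ratios (50%) were called lower, 5 with enough counts, among them mir-182 (-1.33) and mir-423 (-0.99), and 0 higher. Both calls were lost without KO replicate 1, KO replicate 3 or WT replicate 2 (adjusted p of up to 0.0939 and 0.165), when 2 ratios were called, and 3 were called without WT replicate 1. In TNRC6B KO and TNRC6A KO 3 of 12 ratios (25%) were called in each.

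Among the IP libraries, ratios of let-7f-1, mir-183 and let-7a-3 were higher in the AGO2 IP of AGO2 KO than of WT cells. There 7 of 44 (15.9%) were called, 6 higher and 1 lower, and the 6 higher ones were kept. The lower one was mir-1226, with 2 precursor counts in AGO2 KO against 438 in WT (log2 ratio change -3.50, limma adjusted p = 0.0003361). let-7f-1 stood at 0.621%, 0.249% and 0.418% in AGO2 KO, against 0.0344%, 0.0285% and 0.0275% in WT (log2 ratio change 3.74, SE 0.65, limma adjusted p = 0.0003676). Without KO replicate 1 or 3 only 2 ratios were called, and the calls of mir-183 and let-7a-3 were lost (limma adjusted p of 0.057 to 0.0821). In the AGO1 IP 30 of 44 ratios (68.2%) were called between AGO1 KO and WT cells, 26 higher and 4 lower. Of these, 6 had enough counts in both groups, all higher in AGO1 KO. They include mir-4485, whose counts cannot be assigned to a hairpin. The 4 lower ones were left out, among them mir-423 with 6 precursor counts in AGO1 KO against 370 in WT. In 6 of the called ratios the fitted sign ran against the observed one. With the pan-AGO antibody 26 ratios (59.1%) were called in AGO1/2/3 KO, of which 8 were kept as higher and 3 as lower. The kept ratios include mir-4485 as higher and mir-12136 as lower, to which the same limit applies. In AGO1/2 KO 4 (9.09%) were called, of which 2 were kept as higher. The 2 called lower in AGO1/2 KO were left out. In AGO1/2/3 KO the lower call of mir-196b was left out too, at 9 precursor counts against 1248 in WT. mir-221 was among the higher ones in AGO1/2/3 KO, at 3.49%, 7.90% and 2.70%, against 0.384%, 0.512% and 0.407% in WT (3.43, adjusted p = 3.193e-05).

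In WT cells mir-196b and mir-425 precursor counts were high relative to their mature counts in the AGO-bound RNA. mir-196b stood at 10.0%, 14.3% and 16.0% in the pan-AGO IP and at 4.37%, 2.93% and 3.10% in the AGO2 IP, against 0.886%, 0.573% and 0.677% in whole-cell RNA (log2 ratio changes 4.11, SE 0.30, limma adjusted p = 7.22e-07, and 2.16, SE 0.30, adjusted p = 0.0006587). mir-425 stood at 5.95%, 6.72% and 6.26% in the AGO2 IP, against 2.29%, 3.47% and 2.41% in whole-cell RNA (1.15, SE 0.25, adjusted p = 0.01352), a call that was lost without AGO2 IP replicate 3 (adjusted p = 0.0694). No library of either row overlapped. mir-21 ran the other way in the AGO2 IP, at 0.0810%, 0.0729% and 0.0834%, against 0.169%, 0.154% and 0.278% in whole-cell RNA (-1.37), a call lost in each fit without 1 library (adjusted p of 0.0819 to 0.18). In all, 10 of 52 ratios (19.2%) were called in the AGO2 IP, 32 (61.5%) in the AGO1 IP and 22 (42.3%) in the pan-AGO IP, of which 7, 17 and 13 had enough counts. These include mir-4485 with each antibody and mir-12136 in the AGO1 IP, rows whose counts cannot be assigned to a hairpin.

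Over the whole series, precursor counts were 0.114% of mature counts for mir-21, 0.212% for let-7b, 1.22% for mir-222, 3.23% for mir-454, 4.36% for mir-196b, 6.25% for mir-425 and 20.7% for mir-182. For mir-12136 and mir-1248 they were 535% and 3835%, more than their mature counts. Across the 45 libraries, which share depth and RNA source, the level of a precursor row followed its mature rows with a median Spearman's rho of 0.65 over 89 rows with at least 100 counts. The median was 0.80 within the 21 IP libraries and 0.41 within the 24 whole-cell libraries. Over all libraries rho ran from -0.34 for mir-7705 to 0.96 for mir-7-2, was above 0.5 in 65 rows and below 0 in 5 rows, namely mir-7705, mir-4521, mir-3929, mir-10394 and mir-664a. By the same measure between precursor rows, the rows most like mir-7-1 were mir-7-2 (0.96), mir-182 (0.94) and mir-423 (0.89). Those most like mir-12136 were mir-7705 (0.65), mir-10b (0.64) and mir-4485 (0.59), and those most like mir-1248 were mir-1244-3 (0.63), mir-664b (0.62) and mir-1244-2 (0.62).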

How the data were processed

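Small RNA libraries (TruSeq Small RNA kit) were made from whole-cell or immunoprecipitated RNA of HCT116 cells. The authors deposited 1 file of counts per library, with a read count for each named RNA feature. Adapters were trimmed with cutadapt 1.16 and reads aligned with Bowtie 1.1.2 to GRCh38 (hg38), per the submitters' processing notes; the sources used here do not say how a read that fits several rows was counted. The precursor rows, gene lists and tests were chosen with earlier results of these data known.

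Shares, CPM (counts per 1000000 counts), and precursor percent of mature counts were computed without a test. Differences were tested with edgeR 4.0.16 (R 4.3.3; filterByExpr, minimum count 10 and total 15; TMM over all tested features; quasi-likelihood F test) on the deposited counts of all features, in 1 fit each for 24 whole-cell, 21 IP and 12 WT libraries, with Benjamini-Hochberg adjustment over all features at 0.05. Precursor-to-mature log2 ratios were tested with limma 3.58.1 (pseudocount 0.5). On simulated data, edgeR called 66% of features changed 4-fold and 16% of those changed 2-fold in AGO1/2/3 KO against WT whole-cell RNA (15896 features). The changed features were drawn from all tested features, so these percentages do not stand for precursor rows with few counts. A row at 0 in a group has a bound computed from 3 counts over the group, against the pooled counts of the other group as they stand. The bound leaves out the spread between libraries and the counting error of the other group, so an "at least" fold is not a confidence limit. The p-values cover the spread of 3 libraries and counting error only. Hairpins were matched to GENCODE transcripts with BLAST 2.17.0 (at least 90% identity over 70% of the hairpin and 25 bases, the 70% chosen after seeing the matches).

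Rows are named by total count, by the list they belong to, and per comparison by the largest changes among called rows with a mean count of at least 10 in a group and no overlap between groups; other rows that are named, and those given in ranges, were chosen after their values were seen. Replicate numbers deviate together (correlation over 0.1 in every pair) only in AGO1 KO against WT in the AGO1 IP (0.379, 0.207 and 0.511). Alternatives were RLE factors, total counts, TMM on mature rows, DESeq2 1.42.0, no count filter, a replicate block, other ratio settings and leaving out each library. DROSHA-/- and siRNA samples were not analysed here. Sums and plots were made in Python 3.11.15 (matplotlib 3.10.9, scipy 1.17.1, numpy 2.4.6, pandas 2.3.3).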

Additional observations from a re-analysis of the deposited data

Results flagged for a closer look

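The rows of mir-320a and mir-93 moved in opposite directions in whole-cell and AGO-bound RNA of the same knockout. mir-320a was higher in whole-cell RNA of AGO1/2/3 KO than of WT cells (log2 fold change 2.61, SE 0.64, edgeR adjusted p = 0.002938) and had 0 counts in the pan-AGO IP of AGO1/2/3 KO cells, against 74 in that of WT cells (at least 12-fold lower, edgeR adjusted p = 0.01459). mir-93 was higher in whole-cell RNA (log2 fold change 2.29, SE 0.40, edgeR adjusted p = 6.657e-05) and lower in the pan-AGO IP (-3.92, SE 0.78, edgeR adjusted p = 0.001052). All 3 libraries of each KO group lay on 1 side of all 3 WT libraries for both rows in both sources. mir-221 also was higher in whole-cell RNA (1.17, edgeR adjusted p = 0.03847) and lower in the pan-AGO IP (-1.86, edgeR adjusted p = 0.02907), but its KO and WT libraries overlapped in whole-cell RNA. The pan-AGO IP call of mir-320a was lost without KO replicate 3 or WT replicate 3. The difference between the sources was not tested.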

How the results depend on the processing

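Across the alternatives, 642 values of rows named by rule kept their direction and side of the threshold and 21 kept their direction only, and with 1 library left out 684 and 141 did. Of the other called rows, total counts turned let-7a-3 in the AGO2 IP of AGO2 KO (0.13), mir-12136 in the pan-AGO IP (0.50), and mir-1248 (0.21), mir-221 (0.43), mir-4521 (0.41) and mir-92b (0.44) in the AGO1 IP against whole-cell RNA to log2 fold changes above 0. The replicate block moved no count of called rows by more than 1.5 times. It gave 15 rows in AGO1 KO against WT in the AGO1 IP, where libraries of the same number deviated together, though the labels state no pairing. The call of mir-93 in the AGO1 IP against whole-cell RNA was lost with the block (adjusted p = 0.0515). Counts of called rows changed as follows, and apart from the smaller number of rows or libraries in some fits the cause was not tested. DESeq2 called 2 rows in AGO1 KO whole-cell RNA and 27 in the AGO1 IP of AGO1 KO. TMM on mature rows called 4 in AGO1 KO, 3 in AGO2 KO and 7 in AGO1/2 KO whole-cell RNA, 26 in the AGO1 IP and 47 in the pan-AGO IP against whole-cell RNA. Total counts called 2 in AGO2 KO whole-cell RNA, 27 in AGO1 KO in the AGO1 IP, and 35 in the AGO1 IP and 59 in the pan-AGO IP against whole-cell RNA. With no count filter 4 and 2 were called in AGO1 KO and AGO2 KO whole-cell RNA, 35, 104 and 41 in the AGO1 IP of AGO1 KO, the AGO2 IP of AGO2 KO and the pan-AGO IP of AGO1/2 KO, and 31, 118 and 64 in the AGO1, AGO2 and pan-AGO IP against whole-cell RNA. Ratios with at least 10 precursor counts in each group were called 6, 2 and 11 times in the AGO1 IP of AGO1 KO and the pan-AGO IP of AGO1/2 KO and AGO1/2/3 KO, and 17 and 13 times in the AGO1 and pan-AGO IP against whole-cell RNA. A pseudocount of 2 called 11, 8 and 27 ratios in the AGO2 IP of AGO2 KO, the pan-AGO IP of AGO1/2 KO and the AGO2 IP against whole-cell RNA. Minimum counts of 3 and 15 called 0, 10 and 24 in AGO2 KO, AGO1/2 KO and AGO1/2/3 KO whole-cell RNA, 17, 16 and 19 in TNRC6A KO, TNRC6B KO and TNRC6A/B KO, 53, 15, 13 and 44 in the AGO1 IP of AGO1 KO, the AGO2 IP of AGO2 KO and the pan-AGO IP of AGO1/2 KO and AGO1/2/3 KO, and 26 in the AGO2 IP against whole-cell RNA. Leaving out 1 library in turn gave 9 to 15 called rows in AGO1/2/3 KO, 2 to 4 in AGO1/2 KO, 0 to 1 in AGO2 KO and 4 to 7 in AGO1 KO whole-cell RNA, 21 to 26 in TNRC6A/B KO, 16 to 21 in TNRC6B KO and 16 to 23 in TNRC6A KO, 9 to 22 in AGO1 KO with the AGO1 antibody, 43 to 51 in the AGO2 IP of AGO2 KO, 24 to 48 and 1 to 17 in the pan-AGO IP of AGO1/2/3 KO and AGO1/2 KO, and 6 to 30, 58 to 61 and 15 to 24 in the AGO1, AGO2 and pan-AGO IP against whole-cell RNA. The called ratios ran from 5 to 8, 3 to 5, 0 to 1 and 0 to 3 in AGO1/2/3 KO, AGO1/2 KO, AGO2 KO and AGO1 KO whole-cell RNA, from 2 to 5, 2 to 3 and 2 to 3 in TNRC6A/B KO, TNRC6B KO and TNRC6A KO, from 28 to 31 and 2 to 7 in the AGO1 and AGO2 IP of the matching KO, from 22 to 27 and 0 to 3 in the pan-AGO IP of AGO1/2/3 KO and AGO1/2 KO, and from 24 to 30, 1 to 7 and 18 to 21 in the AGO1, AGO2 and pan-AGO IP against whole-cell RNA. The share of all counts taken by the 200 rows, without Ensembl transcript rows in the total, was 0.468% and 0.29% in the AGO1 IP of AGO1 KO and WT cells, 0.203% and 0.18% in the AGO2 IP of AGO2 KO and WT, 0.345%, 0.333% and 0.242% in the pan-AGO IP of AGO1/2/3 KO, AGO1/2 KO and WT, and 0.165%, 0.0846%, 0.0612%, 0.0608%, 0.114%, 0.113%, 0.0979% and 0.0616% in whole-cell RNA of AGO1/2/3 KO, AGO1/2 KO, AGO2 KO, AGO1 KO, TNRC6A/B KO, TNRC6B KO, TNRC6A KO and WT cells. Without mir-12136 the share, in the same order of groups, was 0.013% and 0.0561%, 0.0659% and 0.149%, 0.0203%, 0.0452% and 0.0946%, and 0.00859%, 0.01%, 0.0136%, 0.0111%, 0.0516%, 0.0492%, 0.048% and 0.014%, and the share of miRNA counts was 0.86% and 0.309%, 0.343% and 0.182%, 0.29%, 0.239% and 0.229%, and 0.541%, 0.45%, 0.383%, 0.439%, 0.536%, 0.633%, 0.525% and 0.274%. With variant mature entries added it was 9.64% in the AGO1 IP of AGO1 KO cells. Depth limits the whole-cell comparisons, where 44 of the 200 rows could be tested.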
